A study of Mus musculus with 2 samples.

Results

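Progress from G1 into S phase rests on a small set of genes: the D cyclins, their partner kinases Cdk4 and Cdk6, and the Cip/Kip and Ink4 inhibitors of these kinases. Of this set, 10 genes (Ccnd1, Ccnd2, Ccnd3, Cdk4, Cdk6, Cdkn1a, Cdkn1b, Cdkn1c, Cdkn2a and Cdkn2c) were compared between oligodendrocytes (the myelin-forming cells of the brain) and astrocytes, both cultured from mice. They were chosen by name: every non-control probe whose gene name in the array files was 1 of these 10 was taken. This gave 17 of 41174 gene probes and 53 of 43379 gene spots on each array. The probes stand for 10 of 27670 gene symbols, counted after names were matched to RefSeq where possible. The series looked for messenger RNAs that oligodendrocytes hold at a higher level than astrocytes. Its wider subject is how microRNAs of the miR-17~92 family set the number of oligodendroglial cells, and several of the 10 genes are reported targets of that family.

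Both cell types were primary, untreated cells of strain C57BL/6J. Oligodendrocytes were collected by shaking mixed glial cultures after 10 to 14 days. The cultures that remained were kept in medium with 10% fetal calf serum, microglia were shaken off 7 to 10 days later, and the astrocyte layer was then harvested with trypsin, so the cell types also differed in time in culture and in the way they were collected. Each of 2 arrays held RNA of both cell types in competition, with the dyes exchanged: astrocytes in Cy3 and oligodendrocytes in Cy5 for replicate 1, and the reverse for replicate 4. Whether the 2 replicates are separate cultures is not in the labels. A p-value here reflects only how far the 2 arrays differ, over all genes as well as for the gene itself, and that spread may be technical. The fit drew each gene's variance toward a value shared by all genes. That shared value counted for 8.427 degrees of freedom, against 1 of the gene's own.

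In G1, D cyclins bind Cdk4 or Cdk6, and the active kinases phosphorylate the retinoblastoma protein, which releases E2F factors to switch on S phase genes. Ink4 proteins bind Cdk4 and Cdk6 directly, whereas Cip/Kip proteins bind cyclin-kinase complexes and mainly block Cdk2. In the oligodendrocyte lineage, precursors divide and must leave the cycle before they form myelin, and p27Kip1 and p57Kip2, the products of Cdkn1b and Cdkn1c, are known for their part in that exit.

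The microRNAs named in the series title act through a seed, bases 2 to 8, that pairs with messenger RNA. The 6 mature sequences below are shown because these genes include reported targets of them, with the seed in capitals. They come from RefSeq (GRCm38.p6) and lie on the plus strand of chromosome 14, from miR-17-5p at chr14:115043684-115043706 to miR-92a-3p at chr14:115044476-115044496.
mmu-miR-17-5p: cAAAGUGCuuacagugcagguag
mmu-miR-20a-5p: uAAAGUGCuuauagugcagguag
mmu-miR-18a-5p: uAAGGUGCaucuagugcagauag
mmu-miR-19a-3p: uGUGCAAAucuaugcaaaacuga
mmu-miR-19b-3p: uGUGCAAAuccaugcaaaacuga
mmu-miR-92a-3p: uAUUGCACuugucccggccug

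The first pair shares 1 seed, as does the miR-19 pair, so the cluster carries 4 seeds. The probes of the G1 genes were searched on the sense strand for the complement of each seed. Only the Cdkn1c probe held one, GTGCAAT for miR-92a-3p, at bases 39 to 45 of the probe. Bases 28 to 57 of that probe are shown with the match in capitals.
Cdkn1c probe: atctgaaaactGTGCAATgtattgagaaca

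The same letters stand in 112 of all 41174 gene probes (0.272%). GCACTTT (miR-17-5p and miR-20a-5p) stands in 0.5% of them, TTTGCAC (miR-19) in 0.435% and GCACCTT (miR-18a-5p) in 0.287%, and in none of the 17 G1 probes. A match of letters is not a tested site, and a probe covers only a small piece of its transcript.

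Of the 10 genes, 9 were tested and 7 of them (77.8%) differed between the cell types, beside 41.2% of all 21896 genes tested (limma, Benjamini-Hochberg adjusted p under 0.05). Cdkn1c, Cdkn1a and Cdk4 were higher in oligodendrocytes, beside 18.5% of all genes. Ccnd2, Ccnd3, Cdk6 and Cdkn1b were higher in astrocytes, beside 22.6% of all genes. Ccnd1 and Cdkn2c did not pass the test, and Cdkn2a was not entered in it because 1 of its spots was marked as an outlier. Ratios were set so that the typical gene lies at 0 (the median of all genes was -0.0040). Spike-in scaling subtracted the median ratio of the 10 spike-in control probes, 0.71 (0.48 to 0.78), from each of these normalised ratios. With it, the median of all genes moved to -0.71, Cdk4 moved to -0.34 and Cdkn1a to -0.03. The share of called genes that were higher in oligodendrocytes then fell from 45.05% to 6.64%. The protocols do not say whether equal amounts of spike-in RNA were added for each cell type, so this scaling serves only as an alternative. Every direction below is relative to the typical gene.

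**Figure D1:**
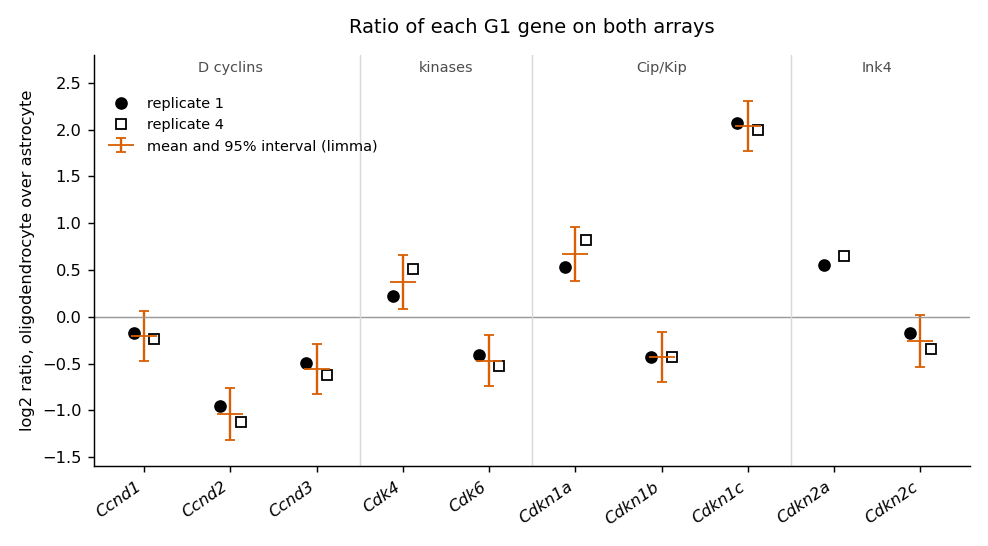
Log2 ratio of oligodendrocyte over astrocyte for each G1 gene on the array of replicate 1 (filled circle) and of replicate 4 (open square), with limma's mean and 95% interval for the 9 genes tested; Cdkn2a has no interval because it was not entered. Cdkn1c sits near 2 on both arrays and Ccnd2 near -1, while all others lie between -0.62 and 0.82. With spike-in scaling the means of Cdk4 and Cdkn1a would fall to -0.34 and -0.03, and that of Cdkn2a would also lie below 0.

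Among the D cyclins, which link growth signals to the cycle, Ccnd2 differed most. Its normalised signal in oligodendrocytes was 9535 on replicate 1 and 7626 on replicate 4, and in astrocytes it was 18478 and 16589. Both astrocyte values lay above both oligodendrocyte values. The log2 ratio was -0.95 on replicate 1 and -1.12 on replicate 4, with a mean of -1.04 ± 0.12 (SD, n = 2), or 2.05-fold higher in astrocytes (95% interval of the log2 ratio -1.31 to -0.76, limma adjusted p = 7.89e-05).

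Ccnd2 was read by 3 probes on the minus strand of chromosome 6 in mm7, the build that the file headers name. The probe reported above lies at chr6:127154070-127154129, and the others at chr6:127163669-127163728 and chr6:127173178-127173237. The latter 2 probes are shown because they read other stretches of the transcript, each without a stop codon in at least 1 reading frame.
Ccnd2 probe at chr6:127163669-127163728: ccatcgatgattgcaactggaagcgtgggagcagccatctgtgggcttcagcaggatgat
Ccnd2 probe at chr6:127173178-127173237: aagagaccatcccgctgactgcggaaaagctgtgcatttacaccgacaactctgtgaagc

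Their mean log2 ratios were -1.40 ± 0.19 and -1.28 ± 0.57 (SD, n = 2). With every probe tested as its own feature, all 3 Ccnd2 probes were higher in astrocytes (limma adjusted p 1.03e-05 to 0.000227), beside 40.2% of all 32565 probes called in either direction. The probe at chr6:127173178-127173237 gave the least even values, -0.87 on replicate 1 and -1.68 on replicate 4.

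Ccnd3, the D cyclin best known from lymphocytes, had normalised signals of 2194 and 2088 in oligodendrocytes and of 3095 and 3210 in astrocytes on replicates 1 and 4. The cell types did not overlap, and astrocytes were the higher on both arrays. The mean log2 ratio was -0.56 ± 0.09 (SD, n = 2; -0.50 and -0.62), or 1.47-fold higher in astrocytes (limma adjusted p = 0.0042). The call was kept under 11 of 13 alternatives and was lost with median centring and with a test against a log2 ratio of 0.5. Its single probe lies at chr17:45735858-45735917 on the plus strand (mm7).

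Ccnd1, the D cyclin of many growth factor responses, had a probe printed 10 times per array, which the files place at chr7_random:7568179-7568238 (mm7), an unplaced sequence of chromosome 7. Its normalised signal was 7056 and 6521 in oligodendrocytes and 7970 and 7674 in astrocytes. Astrocytes were the higher on both arrays, by a small margin. The mean log2 ratio was -0.21 ± 0.04 (SD, n = 2; -0.18 and -0.23), with a 95% interval of -0.47 to 0.06, and the gene was not called (limma adjusted p = 0.216). The 10 spots ranged from -0.23 to -0.09 on replicate 1 and from -0.27 to -0.19 on replicate 4, so each spot lay below 0. The interval leaves room for a ratio of 0 and for a moderate excess in astrocytes.

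The kinases Cdk4 and Cdk6, which the D cyclins activate, went in opposite directions. Cdk4 had normalised signals of 3897 and 4167 in oligodendrocytes and of 3343 and 2919 in astrocytes. Both oligodendrocyte values were above both astrocyte values, with a gap of varying size. The log2 ratio was 0.22 on replicate 1 and 0.51 on replicate 4, with a mean of 0.37 ± 0.21 (SD, n = 2), or 1.29-fold higher in oligodendrocytes relative to the typical gene and -0.34 under spike-in scaling (95% interval 0.08 to 0.66, limma adjusted p = 0.0444). This call was the least stable of the 7: it was kept in its direction under 5 of 13 alternatives with a test, with adjusted p from 0.0219 to 1 over all 13. The Cdk4 probe at chr10:126562389-126562448 (plus strand, mm7) is shown because it covers codons of the catalytic domain; the capitals mark the codons of a motif that nearly all protein kinases share, which binds the magnesium ion.
Cdk4 probe: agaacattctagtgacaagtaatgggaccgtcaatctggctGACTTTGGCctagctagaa

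Cdk6 had normalised signals of 3464 and 3213 in oligodendrocytes and of 4598 and 4636 in astrocytes with its brightest probe. The cell types did not overlap. The mean log2 ratio was -0.47 ± 0.09 (SD, n = 2; -0.41 and -0.53), or 1.38-fold higher in astrocytes (limma adjusted p = 0.0109). That probe, at chr5:3535293-3535352, was designed on a cDNA clone rather than on the RefSeq transcript. Both probes for the RefSeq transcript were dim and gave mean log2 ratios of -0.14 ± 0.19 and -0.11 ± 0.11 (SD, n = 2), and neither was called (limma adjusted p over probes 0.418 and 0.505). The dim probes had normalised signals of 120 to 146, in a range where the offset of 50 pulls ratios toward 0. The part of the offset in the difference between the Cdk6 probes was not tested. With the mean of its probes in place of the brightest, the Cdk6 ratio was -0.24 and not called (limma adjusted p = 0.0961), and over 13 alternatives the call was kept in 9, with adjusted p from 1.69e-05 to 1.

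**Figure D2:**
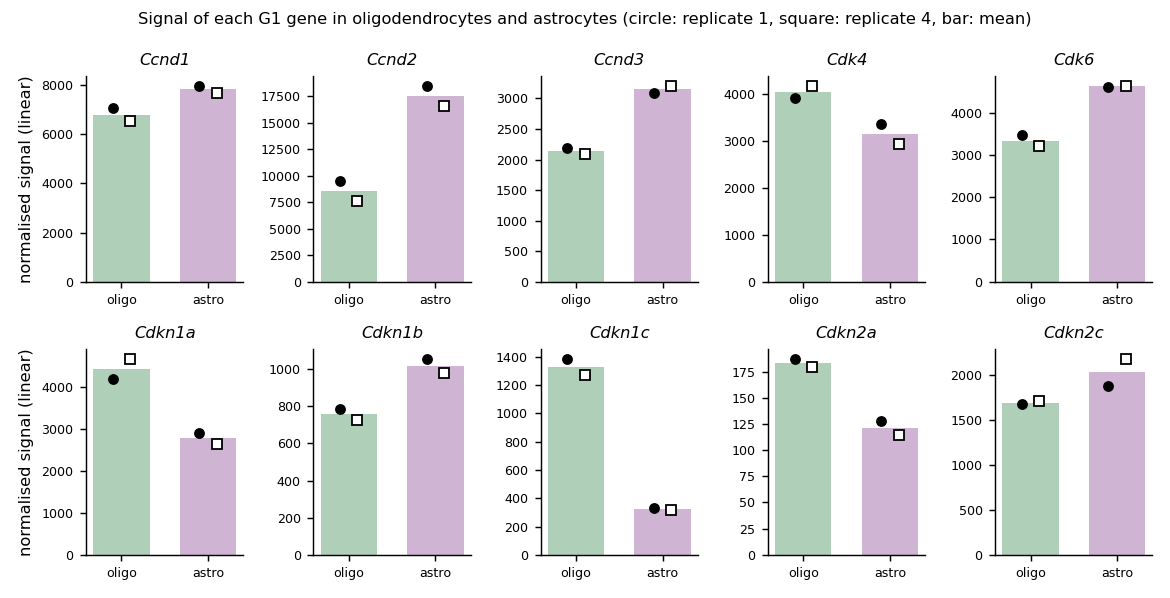
Normalised signal on a linear scale, in oligodendrocytes and astrocytes, for the probe that stands for each G1 gene (Cdkn2a: its only probe); circles are replicate 1, squares replicate 4 and bars the mean of both. Each panel has its own scale, so heights compare cell types within a gene and not genes with each other. In no panel do the cell types overlap, which also holds for 69.3% of all genes tested. For Cdkn1c the values are 1387 and 1269 against 329 and 317.

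Cip/Kip inhibitors held the widest range of the set. Cdkn1c encodes p57Kip2, an imprinted inhibitor that holds cells out of the cycle as they differentiate. Its normalised signal was 1387 and 1269 in oligodendrocytes and 329 and 317 in astrocytes. The arrays agreed closely, and the oligodendrocyte values were about 4 times those of astrocytes. The log2 ratio was 2.075 on replicate 1 and 2.001 on replicate 4, with a mean of 2.04 ± 0.05 (SD, n = 2), or 4.11-fold higher in oligodendrocytes (95% interval 1.77 to 2.31, limma adjusted p = 7.07e-07). With each gene read by its brightest probe, it was the only one of the set that differed by at least 2-fold on both arrays, a mark reached by 12.4% of all genes; a dimmer Ccnd2 probe, at -1.26 and -1.53, also reached it. For Cdkn1c, the ratio was above that of 98.6% of the genes tested, at rank 308. Cdkn1c kept its call under all 13 alternatives with a test, as did Ccnd2. Its probe, part of which is printed above, lies at chr7:139886128-139886187 on the minus strand (mm7).

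Cdkn1a encodes p21Cip1, the inhibitor that p53 induces after DNA damage. Its normalised signal was 4191 and 4672 in oligodendrocytes and 2907 and 2640 in astrocytes. Oligodendrocytes were the higher on both arrays. The log2 ratio was 0.53 on replicate 1 and 0.82 on replicate 4, with a mean of 0.68 ± 0.21 (SD, n = 2), or 1.60-fold higher in oligodendrocytes relative to the typical gene and -0.03 under spike-in scaling (95% interval 0.39 to 0.96, limma adjusted p = 0.00192). Its probe, at chr17:27293819-27293878 (plus strand, mm7), was printed 10 times. The spots ranged from 0.51 to 0.55 on replicate 1 and from 0.79 to 0.87 on replicate 4, so the arrays differed by more than the spots within either array. The call was kept under 10 of 13 alternatives, and was lost with median centring, spike-in scaling and a test against a log2 ratio of 0.5.

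Cdkn1b encodes p27Kip1, which inhibits cyclin E and Cdk2. Its normalised signal was 786 and 729 in oligodendrocytes and 1057 and 980 in astrocytes with its brightest probe (chr6:134939519-134939578, plus strand, mm7). The brightest probe was designed on a cDNA clone, and the other Cdkn1b probes on the RefSeq transcript. The cell types did not overlap, and the log2 ratio was -0.43 on both arrays. The mean of -0.43 ± 0.00044 (SD, n = 2) corresponds to 1.34-fold higher in astrocytes (95% interval -0.70 to -0.16, limma adjusted p = 0.0161), the opposite direction to Cdkn1c and Cdkn1a. A second probe, printed 10 times, is shown because it reads a different stretch of the transcript, at chr6:134935407-134935465.
Cdkn1b probe at chr6:134935407-134935465: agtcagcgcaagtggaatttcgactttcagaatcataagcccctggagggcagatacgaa

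That probe gave -0.54 and -0.56, with a mean of -0.55 ± 0.01 (SD, n = 2; limma adjusted p over probes 0.00352). Its spots ranged from -0.63 to -0.44 on replicate 1 and from -0.66 to -0.45 on replicate 4. The third probe was not well above background in either cell type and was not entered; its values were -0.12 and 0.03. The Cdkn1b call was kept under 10 of 13 alternatives, with adjusted p from 1.96e-05 to 1.

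Ink4 inhibitors of the set were Cdkn2a and Cdkn2c. Cdkn2a, the locus of p16Ink4a and p19Arf, was dim, with normalised signals of 187.5 and 179.3 in oligodendrocytes and of 127.5 and 114.1 in astrocytes. Oligodendrocytes were the higher on both arrays, with log2 ratios of 0.56 and 0.65 and a mean of 0.60 ± 0.07 (SD, n = 2). That mean lies below the spike-in median of 0.71, so spike-in scaling would take it below 0. Its probe (chr4:88678367-88678426, minus strand, mm7) was printed 10 times, and 1 spot carried an outlier mark, which kept it out of the test. With marked spots kept, limma's adjusted p was 0.00287, and with only the marked spot left out it was 0.00277; the second of these settings was chosen after the mark was seen. A probe of this kind does not say which of the locus's transcripts it read.

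Cdkn2c encodes p18Ink4c. Its normalised signal was 1668 and 1708 in oligodendrocytes and 1878 and 2176 in astrocytes. Astrocytes were the higher on both arrays, by a margin that varied. The mean log2 ratio was -0.26 ± 0.13 (SD, n = 2; -0.17 and -0.35), with a 95% interval of -0.54 to 0.02, and the gene was not called (limma adjusted p = 0.126). A second probe at nearly the same position (chr4:109037591-109037652, against chr4:109037613-109037672 for the first) gave -0.27 ± 0.02 and was not called either.

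**Figure D3:**
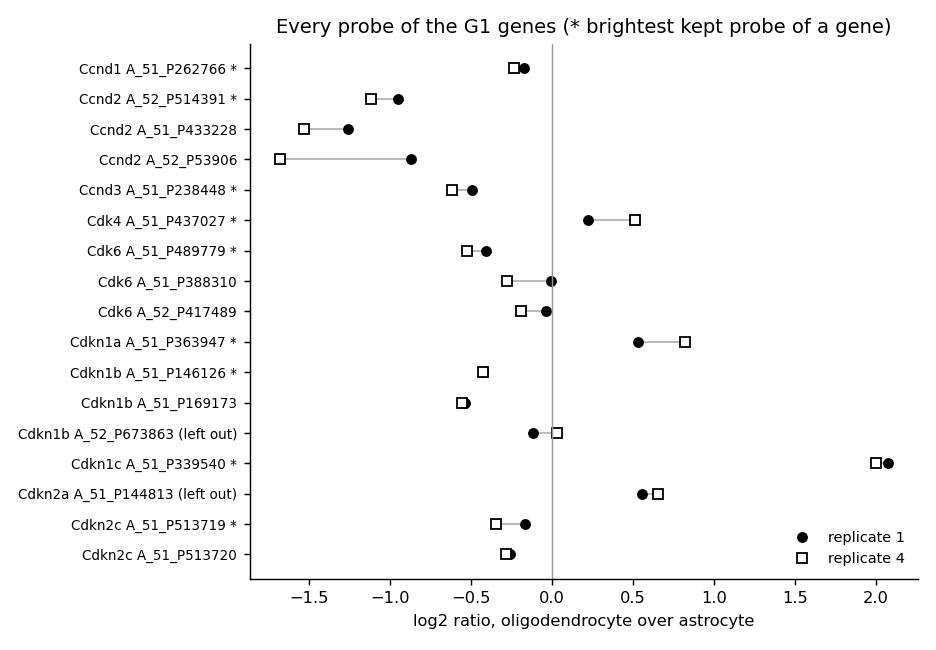
Log2 ratio of oligodendrocyte over astrocyte for all 17 probes of the G1 genes on replicate 1 (filled circle) and replicate 4 (open square), joined by a line; a star marks the probe that stands for the gene and "left out" the 2 probes not entered. The 3 Ccnd2 probes all lie below -0.8, whereas the Cdk6 probes spread from -0.53 to near 0.

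From the oligodendrocyte side to the astrocyte side, the order of the mean ratios among the 9 tested genes was Cdkn1c, Cdkn1a, Cdk4, Ccnd1, Cdkn2c, Cdkn1b, Cdk6, Ccnd3 and Ccnd2. Neighbours whose 95% intervals do not overlap were Cdkn1c (lower end 1.77) and Cdkn1a (upper end 0.96), and, by a narrow margin, Cdk4 (lower end 0.08) and Ccnd1 (upper end 0.06). All other neighbours overlapped, and differences between genes were not tested. In all 9 tested genes both signals of one cell type lay above both of the other, beside 69.3% of all genes. The median ratio of the 9 genes was -0.26. These are bulk RNA samples, in which fewer cells that express a gene and less RNA per cell cannot be told apart.

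Other inhibitors and the phosphatases and kinases that set the activity of cyclin-dependent kinases were read from a list of 8 genes, of which 2 were higher in oligodendrocytes, 2 in astrocytes, and 4 were not called (50% called, beside 41.2% of all genes, median 0.17). These counts became 0 and 5 under spike-in scaling and 0 and 1 with median centring. Cdkn2b, which encodes the TGF-beta induced inhibitor p15Ink4b, was higher in astrocytes, with ratios of -1.62 and -1.48 and a mean of -1.55 ± 0.10 (SD, n = 2; limma adjusted p = 4.71e-06). Cdkn2d, which encodes p19Ink4d, was higher in oligodendrocytes at 0.46 ± 0.36 relative to the typical gene, and was at -0.25 under spike-in scaling (limma adjusted p = 0.0277). The kinases that put the inhibitory phosphate on Cdk1 were both called: Pkmyt1 was at 0.60 ± 0.08 (-0.11 under spike-in scaling) and Wee1 at -0.60 ± 0.15.

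Of 23 other cyclins and cyclin-dependent kinases, 4 were higher in oligodendrocytes, 3 in astrocytes, and 16 were not called (30.4% called, beside 41.2% of all genes, median 0.04). Spike-in scaling gave 0 and 21, and median centring 0 and 1. Ccna1, a cyclin best known from germ cells, was the farthest from 0 at -2.09 ± 0.09 (SD, n = 2; limma adjusted p = 6.36e-07). Ccnc, a subunit of the Mediator kinase module, was at -0.66 ± 0.19, and Ccnb2, a mitotic cyclin, at -0.51 ± 0.09. Cdk5, a kinase of postmitotic neurons and of myelinating cells, was at 0.77 ± 0.12, but at 0.06 and not called under spike-in scaling. Ccng2, Ccne2 and Ccnt2 (the last named after its value was seen) were at 0.52 ± 0.08, 0.42 ± 0.04 and 0.35 ± 0.18, and fell below 0 under spike-in scaling. Ccne1 (0.27 ± 0.18) and Cdk2 (0.07 ± 0.45), the pair that acts after the D cyclins and is the main target of Cip/Kip proteins, were not called (limma adjusted p = 0.123 and 0.789). The Cdk2 probe was dim, with signals of 130.7 and 182.7 in oligodendrocytes and of 155.3 and 139.1 in astrocytes. Its ratios had opposite signs, -0.25 on replicate 1 and 0.39 on replicate 4.

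Of 13 genes of the retinoblastoma and E2F family, 3 were higher in oligodendrocytes, 5 in astrocytes, and 5 were not called (61.5% called, beside 41.2% of all genes, median -0.11). Spike-in scaling gave 0 higher in oligodendrocytes and 9 in astrocytes, and median centring 0 and 1. Rb1 itself, the substrate of the D cyclin kinases, was higher in astrocytes at -0.80 ± 0.36, with -1.06 on replicate 1 and -0.55 on replicate 4 (limma adjusted p = 0.00136); its other probe was at -0.23 and not called. The repressive or atypical members E2f7 (-1.17 ± 0.11) and E2f6 (-0.83 ± 0.07), with E2f5 (-0.89 ± 0.05) and the partner Tfdp2 (-0.37 ± 0.18, named after its value was seen), were also higher in astrocytes. The activator E2f2 was higher in oligodendrocytes at 0.73 ± 0.05 relative to the typical gene, but at 0.02 and not called under spike-in scaling. E2f3 (0.54 ± 0.26) and the atypical E2f8 (0.46 ± 0.20) were higher there relative to the typical gene and below 0 under spike-in scaling. Other probes of E2f3, E2f6 and E2f8 were not called, and that of E2f8 had the opposite sign (-0.22). E2f1, at 0.87 on replicate 1 and -0.03 on replicate 4, was not called (limma adjusted p = 0.11), though its other probe was (0.51, limma adjusted p over probes 0.00531).

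Of 25 S phase genes that E2F factors drive, 4 were higher in oligodendrocytes, 2 in astrocytes, and 19 were not called (24% called, beside 41.2% of all genes, median 0.17). This count turned with the scaling: 0 and 22 with spike-in scaling, and 0 and 0 with median centring. Pcna, the sliding clamp of DNA polymerases, was the highest at 0.57 ± 0.64, with 1.02 on replicate 1 and 0.11 on replicate 4. Prim1 (0.50 ± 0.04), Mcm10 (0.47 ± 0.21) and Ung (0.36 ± 0.02, named after its value was seen) completed the 4, all of which were below 0 under spike-in scaling. Gins2, of the replicative helicase, was at -0.49 ± 0.38 and Pola1, of the primase complex, at -0.37 ± 0.06.

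Of 20 mitosis genes, 1 (5%, beside 41.2% of all genes) was higher in oligodendrocytes and 0 were higher in astrocytes by limma; at an unadjusted p under 0.05 the counts were 2 and 2. Under spike-in scaling all 20 were called higher in astrocytes, and with median centring none was called. Their ratios ran from -0.35 (Prc1) to 0.33 (Birc5), around a median of -0.01. Birc5 was the called gene, just past the threshold (limma adjusted p = 0.0499), and was at -0.38 under spike-in scaling. Mki67, the proliferation marker, was at -0.04 on replicate 1 and 0.56 on replicate 4 and was not called (limma adjusted p = 0.228).

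**Figure D4:**
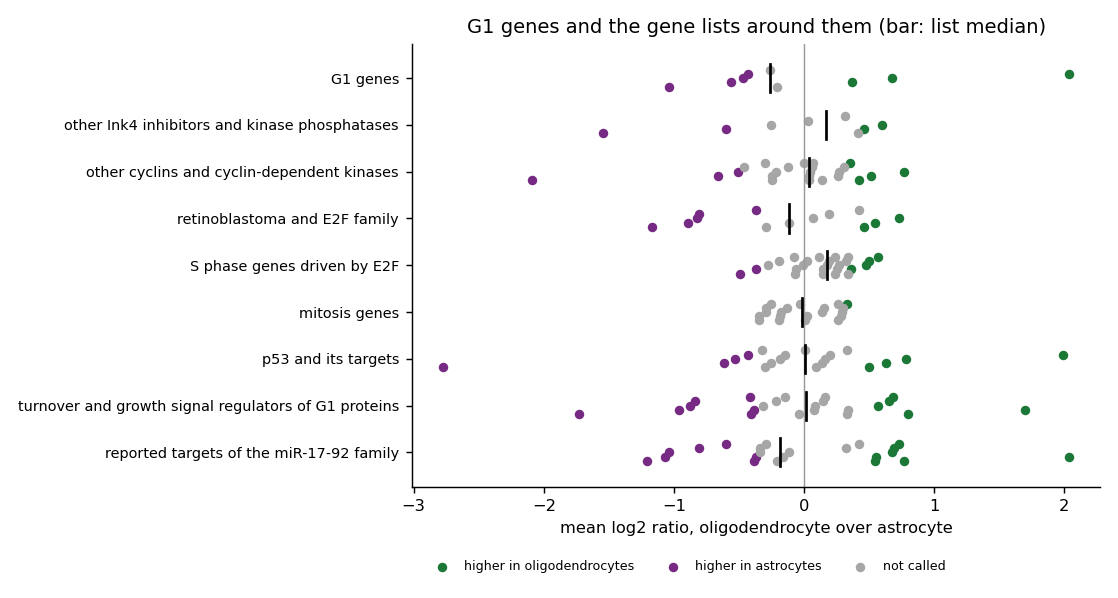
Mean log2 ratio of oligodendrocyte over astrocyte for every tested gene of the G1 set and of 8 lists around it, with each list's median as a bar; green points were called higher in oligodendrocytes, purple points higher in astrocytes and grey points not called (limma). The 20 mitosis genes lie between -0.35 and 0.33, while the G1 genes run from -1.04 to 2.04; under spike-in scaling the median of all genes moves to -0.71.

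Of 19 tested genes of p53 and its targets, 4 were higher in oligodendrocytes, 4 in astrocytes, and 11 were not called (42.1% called, beside 41.2% of all genes, median 0.0072); Cdkn1a, also a p53 target, is not counted here, and Bax was not tested. Spike-in scaling gave 1 higher in oligodendrocytes and 15 in astrocytes, and median centring 1 and 1. Pmaip1, a pro-death BH3-only gene, was at 1.99 ± 0.17. Phlda3, an Akt repressor, was at 0.79 ± 0.30, but at 0.08 and not called under spike-in scaling. Mdm2, which turns over p53, was at 0.63 ± 0.05, and Bbc3 (named after its value was seen) at 0.50 ± 0.06, both below 0 under spike-in scaling. Fas, a death receptor, was at -2.78 ± 0.17, the lowest of the list (limma adjusted p = 1.51e-07), followed by Polk (-0.62 ± 0.04), Ei24 (-0.53 ± 0.36) and Perp (-0.43 ± 0.26, named after its value was seen). Trp53 itself was at 0.33 ± 0.22 and was not called (limma adjusted p = 0.0675). A second Polk probe (-0.19) was not called.

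Regulators of the turnover or transcription of G1 proteins were read from a list of 22 genes. Oligodendrocytes were the higher in 5 and astrocytes in 7, and 10 were not called (54.5% called, beside 41.2% of all genes, median 0.02). Spike-in scaling gave 1 and 17, and median centring 1 and 1. Hmga2, a chromatin protein that represses the Cdkn2a locus, was at 1.70 ± 0.31 (limma adjusted p = 6.31e-06) with its brightest probe, and at 0.75 and 0.40 with the others, which were also called. Gsk3b, whose kinase marks cyclin D1 for export and decay, was at 0.80 ± 0.16, but at 0.09 and not called under spike-in scaling. Fbxo31, a ligase subunit for cyclin D1, was at 0.68 ± 0.04, Myc at 0.65 ± 0.48 and Bmi1 (named after its value was seen), a repressor of the Cdkn2a locus, at 0.57 ± 0.38, these 3 below 0 under spike-in scaling. Foxo1, which drives Cdkn1b transcription, was at -1.73 ± 0.36 (limma adjusted p = 7.24e-06). The ligase subunit Skp1 was at -0.96 ± 0.18 and Mycn at -0.87 ± 0.06. Skp2, which targets p27Kip1, was at 0.08 ± 0.0041 and Fbxw7, which targets cyclin E, at -0.32 ± 0.09, and neither was called, though a second Fbxw7 probe was (-0.38). Other probes of Gsk3b (0.27), Fbxo31 (0.28) and Mycn (-0.09), and 1 of 3 Myc probes (0.29), were not called.

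Of 22 reported targets of the miR-17~92 family, a list that includes Ccnd1, Ccnd2, Cdkn1a and Cdkn1c, 7 were higher in oligodendrocytes, 7 in astrocytes, and 8 were not called (63.6% called, beside 41.2% of all genes, median -0.18). Spike-in scaling gave 1 higher in oligodendrocytes and 14 in astrocytes, and median centring 1 and 3. Cdkn1c (2.04) was the highest, then Bcl2l11 (0.77 ± 0.10), a pro-death gene, and E2f2 (0.73). Under spike-in scaling Bcl2l11 was at 0.06 and E2f2 at 0.02, and neither was called. Thbs1, a secreted matrix protein, was the lowest at -1.21 ± 0.10, then Ccn2 (-1.07 ± 0.19) and Ccnd2 (-1.04). The microRNAs themselves were not measured here, and their host transcript Mir17hg gave no value.

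Markers of cell types were read beside these results. All 8 oligodendrocyte markers were higher in oligodendrocytes, with Cnp the lowest (2.28), and all 8 astrocyte markers were higher in astrocytes, from Gjb6 (-2.41) to Gfap (-4.05). All 7 genes listed as markers of oligodendrocyte precursors were higher in oligodendrocytes. They ran from Olig1 (0.50, and -0.21 under spike-in scaling) to Gpr17 (3.79, and 0.19 and not called with a second probe). Their summed normalised signals were 68205 and 73355, against 23200 and 22743 in astrocytes. Gpr17 (28445 and 31684) and Olig1 (20455 and 20957) made up most of the oligodendrocyte sums. Pdgfra was dim, at 167.2 and 117.5 against 105.2 and 91.97 in astrocytes, whereas Cspg4 was brighter, at 5669 and 6199 against 1505 and 1500. Whether these genes mark dividing cells here was not tested. Of 8 microglia markers, 7 were higher in oligodendrocytes (median 1.31, Trem2 2.63), with sums of 133160 and 172812 against 37002 and 39222; Itgam was not called. Of 7 tested neuron markers, 5 were higher in oligodendrocytes (median 1.95, Elavl3 3.03, and 0.10 and not called with a second probe). The sums over all 7 were 19100 and 22951 in oligodendrocytes against 3522 and 3496 in astrocytes. The brightest Elavl3 probe (15289 and 19311) made up most of the oligodendrocyte sums. Slc17a7 was not well above background in oligodendrocytes.

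Of 7 tested ependymal and choroid markers, 4 were higher in astrocytes (Ak7 -3.67) with Ttr, not well above background in astrocytes, the 1 gene higher in oligodendrocytes, and the sums were 11530 and 7652 in oligodendrocytes against 98357 and 83719 in astrocytes. Of 8 fibroblast and vascular markers, 3 were higher in oligodendrocytes (Col1a1 2.69), 1 in astrocytes (Rgs5 -0.67), and 4 were not called. Other Col1a1 probes were at 1.67 and 0.39 and were also called, while a second Rgs5 probe (-0.27) was not. The sums were 54526 and 55351 in oligodendrocytes against 14450 and 12996 in astrocytes. Col1a1 (24894 and 27144) and Col1a2 (23591 and 22916) made up most of the oligodendrocyte sums. Spike-in scaling moved the counts higher in oligodendrocytes and in astrocytes to 5 and 0 for precursor, 5 and 1 for microglia, 4 and 2 for neuron, 1 and 6 for ependymal and choroid, and 2 and 5 for fibroblast and vascular markers. The part of precursors, microglia, neurons, ependymal cells and fibroblasts in the G1 gene ratios was not tested.

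**Figure D5:**
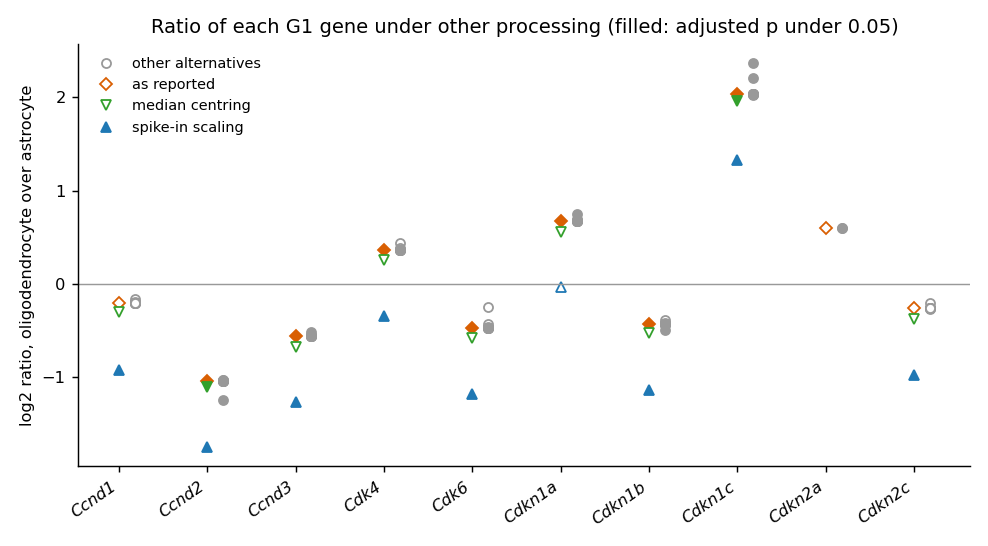
Log2 ratio of oligodendrocyte over astrocyte for each G1 gene as reported (diamond) and under other processing: median centring (green triangle), spike-in scaling (blue triangle) and all other settings (grey circles); filled symbols passed limma's adjusted p under 0.05. Cdkn1c and Ccnd2 are filled throughout, spike-in scaling shifts every gene down by about 0.71 and takes Cdk4 to -0.34 and Cdkn1a to -0.03, and Cdkn2a, not tested as reported, was tested only where marked spots were kept or left out singly.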

How the data were processed

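Members and gene lists were chosen with earlier results of these data known. Per the file headers, the deposited scanner files hold spot intensities of 2-colour arrays read with Agilent Feature Extraction; mean signal and local background intensity were used as deposited. The log10 ratios deposited in the same files, which per the file headers Feature Extraction had already corrected for background and dye, served as an alternative. Other arrays of the series were not analysed here.

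In limma 3.58.1 (R 4.3.3), normexp correction (offset 50) was followed by loess within arrays; the sign was set to oligodendrocyte over astrocyte, and spots of 1 probe were averaged. A probe entered if both arrays showed it well above background in at least 1 cell type and no spot had an outlier mark. Of 41174 gene probes, 32565 entered (15 of 17 for the G1 genes), which gave 21896 genes, each read by its brightest probe. Ratios were tested against 0 with limma's lmFit and eBayes and Benjamini-Hochberg adjustment over all genes; each gene had 1 residual degree of freedom. Normalised signals are channel values after loess and Aquantile.

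Well above background were 76.6% to 83.9% of gene spots per channel, none were saturated, and ratios of the arrays correlated at r = 0.93 and rho = 0.81 across genes, which are not independent. The number of arrays limits the precision. Both arrays share a slide and scan, and no batch could be tested. The fit was tested on simulated data. Probe names follow RefSeq tables (GRCm38.p6); gene models of mm7 were not used here, so exons and UTRs are not given. Named genes were the members, the 3 largest called ratios per direction of each list, fixed genes of the pathway and the extremes of each marker list. Some genes that this rule names are not reported here.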

Additional observations from a re-analysis of the deposited data

How the results depend on the processing

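Of 9 tested G1 genes, Feature Extraction's log ratio called 4 (2 higher in astrocytes), and 9542 of all 21896 genes (4585 higher in oligodendrocytes, 4957 in astrocytes). Median centring called 2 (1 in each direction), and 2928 of all genes (1085 higher in oligodendrocytes, 1843 in astrocytes). A treat test against 0.5 called 2 (1 in each direction), and 3816 of all genes (1608 and 2208). Spike-in scaling called 1 G1 gene higher in oligodendrocytes and 7 in astrocytes, among 19583 genes (1300 and 18283). Spike-in scaling also turned the sign of these log2 ratios: Cdkn1a -0.034, Cdk4 -0.34, Pkmyt1 -0.11, Cdkn2d -0.25, Ccng2 -0.19, Ccne2 -0.29, Ccne1 -0.44, Ccnt2 -0.36, Cdk2 -0.64, E2f1 -0.29, E2f3 -0.17, E2f8 -0.25, Pcna -0.14, Prim1 -0.21, Mcm10 -0.24, Ung -0.35, Birc5 -0.38, Mki67 -0.45, Mdm2 -0.084, Trp53 -0.38, Bbc3 -0.21, Fbxo31 -0.026, Skp2 -0.63, Myc -0.055, Bmi1 -0.14, Olig1 -0.21, Itgam -0.44 and Slc17a7 -0.70. Without background subtraction Slc17a7 was at -0.033. Under spike-in scaling Ccnd1 (-0.92) and Cdkn2c (-0.97) were called. The cause of these changes was not tested. Calls of Cdkn1c and Ccnd2 were kept under all 13 alternatives with a test. Without the replicate block (separate channels), 9977 genes and 7 G1 genes were called. The replicates pair the samples because each array held both cell types. Leaving out either replicate leaves 1 array, a value with no test and no count of calls.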
